A study of Mus musculus with 7 samples.

Results

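The acrosome is a single large secretory vesicle that caps the sperm nucleus, and it is built from Golgi-derived vesicles while round spermatids develop into elongating ones. It holds proteases and hyaluronidases that are released when sperm meet the egg coat, and its membranes carry proteins that anchor it to the nucleus or take part in binding and fusion. Sperm surface glycoproteins pass through chaperones of the endoplasmic reticulum and through the Golgi, and genes of this machinery are known mainly for male infertility when they are lost. Described here are 35 mouse genes of acrosome formation and of the sperm surface, chosen by gene symbol from their known roles, with earlier results of these data known. Of these, 34 were found among the 19719 genes of the table, and all 34 passed the filter for testing (more than 1 CPM, reads per gene scaled to library size, in at least 3 of 7 libraries, which 19400 genes passed). *Pdilp*, a testis chaperone, was not analysed here.

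Total testis RNA of C57BL/6 male mice, 8 weeks old, was sequenced from 3 fl/Y males, which carry a floxed allele of the X-linked ubiquitin ligase gene *Rlim* (labelled WT), and 4 cKO/Y Sox2-Cre males, in which this allele was deleted (labelled Rlim-KO). Sox2-Cre is active in the early embryo, so the deletion covers somatic tissues and the germline, and an effect within spermatids cannot be told apart from one through other cells. The comparison addresses whether testes lacking *Rlim* differ in their transcripts. Replicates 1 and 2 of each genotype were batch 2 of the labels, and fl/Y replicate 3 and cKO/Y Sox2-Cre replicates 3 and 4 were batch 1. What the batches were is not stated, and p-values measure the spread between these libraries. The study describes biological replicates from male littermates, while the labels call the libraries repeats and do not say which of them shared a litter.

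The libraries held 2822168 to 8633399 reads in listed genes, so that 3 reads correspond to between 0.301 and 0.945 CPM. mt-Rnr2, a mitochondrial ribosomal RNA, took 5.06% to 17.7% of the reads in 6 libraries, while in cKO/Y Sox2-Cre replicate 1 the leading gene was CT010467.1 at 19.3%. *Rlim* itself measured 99.5, 70.7 and 61.5 CPM in the fl/Y libraries and 32.6, 35.7, 21.7 and 20.7 CPM in the cKO/Y Sox2-Cre libraries, without overlap. Its log2 fold change was -1.38 (SE 0.16, adjusted p = 0.0087, limma with batch as a covariate), and within the batches it was -1.29 in batch 2 and -1.52 in batch 1. *Rlim* kept its direction under 21 alternatives, but its adjusted p stayed under 0.05 in 15 of them. This adjusted p was 0.815 without a variance trend, 0.921 without the batch term and 0.307 with a replicate block. In batch 2 alone it was 0.872, without fl/Y replicate 1 it was 0.154 and without fl/Y replicate 3 it was 0.634. The last fit gave the same estimate as batch 2 alone, because fl/Y replicate 3 was the only fl/Y library of batch 1. Markers of the spermatids in which an acrosome forms were detected in every library, with sums between 2522 and 3251 CPM over 19 markers of round spermatids and between 13564 and 18639 CPM over 19 markers of elongating spermatids. Of 8 markers of the epididymis, 0 were among the listed genes.

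None of the 34 acrosome and sperm surface genes passed the test for a difference between the genotypes. At an adjusted p under 0.05 (limma on log2(CPM + 0.5), Benjamini-Hochberg over the genes tested) the count was 0 of 34, beside 1 gene or 0.00515% of all genes tested, which was *Rlim*. At an unadjusted p under 0.05 it was also 0 of 34, beside 2.58% of all genes (1.37% lower and 1.22% higher in cKO/Y Sox2-Cre). This share of all genes is lower than the threshold of 0.05 itself. With shares this low, 0 of 34 is not read as particular to the set. Tests on the recovered read counts called 0 of 34 at both thresholds with edgeR's quasi-likelihood test, with its likelihood ratio test and with DESeq2. The smallest p of any gene in the limma test was 0.0643, for *Ly6k*, and the lowest adjusted p was 0.9999.

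The differences were small on both sides of 0. Fitted log2 fold changes were above 0 in 18 genes and below 0 in 16, from -0.31 for *Ly6k* to 0.17 for *Gba2*, with a median of 0.0019 beside -0.0055 over all genes tested. The median size of the log2 fold change was 0.055, beside 0.135 over all genes. The median SE was 0.164, beside 0.246 over all genes. Since a p above the threshold does not show that a level was unaltered, the 95% interval of each difference was read as well. For all 34 genes it lay within a 2-fold change in either direction, as it did for 77.0% of all genes tested. For 33 it lay within 1.5-fold, the exception being *Ly6k*. Over the set, the lowest bound was 0.638 times and the highest 1.48 times the fl/Y level. Each interval covers a single gene, and together they are not a joint bound for the set. These limits are given for the main fit only. In limma without a variance trend the SE of each gene was larger, for example 0.31 in place of 0.23 for *Zpbp* and 0.26 in place of 0.22 for *Crisp2*. The comparisons with all genes are not matched for level. Of the 19400 genes tested, 5855 had a mean at or above that of the lowest of the 34. The smaller SE, smaller fold changes and narrower intervals are therefore not read as particular to this set.

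**Figure D1:**
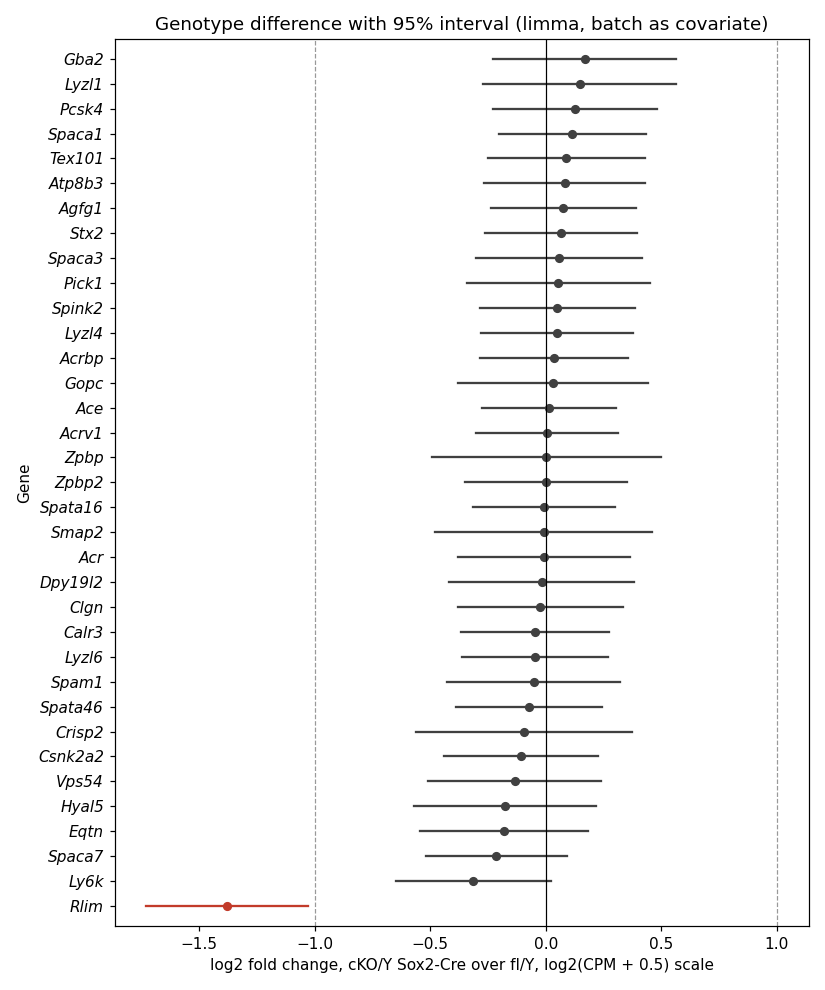
Log2 fold change of each acrosome and sperm surface gene and of *Rlim* (x axis, cKO/Y Sox2-Cre over fl/Y on the log2(CPM + 0.5) scale; points, limma estimates with batch as a covariate; bars, 95% intervals; 3 fl/Y and 4 cKO/Y Sox2-Cre libraries; dashed lines, 2-fold). The 34 genes lie between -0.31 and 0.17 with intervals inside the dashed lines, while *Rlim* lies at -1.38.

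In bulk tissue, fewer cells of a type and less RNA per cell cannot be told apart, and this holds for every value here. Levels are compared between genes only as CPM per kilobase of merged exons. On this scale the fl/Y means spanned 343-fold, from 2.34 for *Gopc* to 802 for *Crisp2*, a cysteine-rich secretory protein of the sperm head and tail. *Atp8b3*, a phospholipid flippase of the acrosomal membrane, followed at 314 and *Spink2*, a protease inhibitor of the acrosome, at 302, and the cKO/Y Sox2-Cre means of these 3 genes were 735, 357 and 298. Of the 8 Golgi and vesicle genes, most of which act in many cell types, 6 were at the low end. *Gopc*, *Vps54*, *Pick1*, *Csnk2a2*, *Stx2* and *Smap2* lay between 2.34 and 8.34 in fl/Y, as did *Gba2* of another group at 8.18. Merged exons take in every annotated exon, used in testis or not, so a long annotation lowers the value. *Csnk2a2* (9.57 kb) and *Spaca7* (0.979 kb) had fl/Y means of 74.3 and 74.1 CPM, but 7.77 and 75.7 CPM per kilobase. *Agfg1* stood at 24.2, and *Spata16*, a Golgi protein known from the testis, at 148. The fewest reads of any of the 34 genes in any library were 70, for *Gopc*, where counting alone gives an error of 12.0%.

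**Figure D2:**
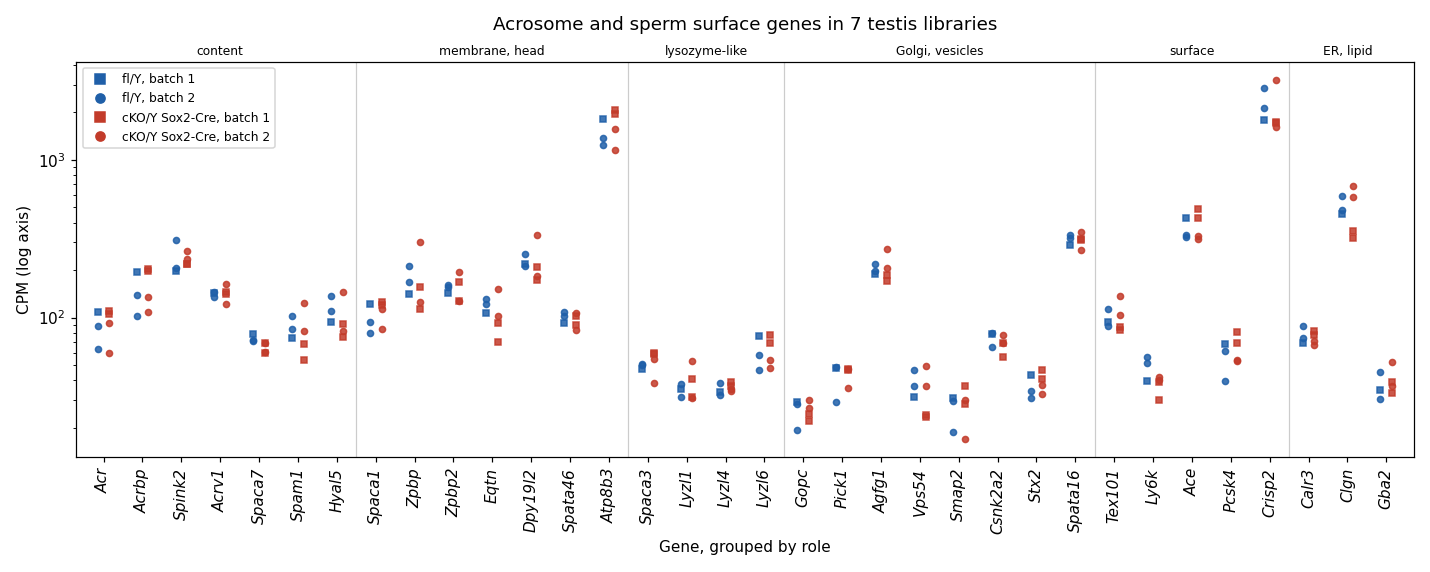
CPM of each gene (y axis, log scale) in each of 7 libraries, grouped by role; blue points are fl/Y and red points cKO/Y Sox2-Cre, circles batch 2 and squares batch 1. The genotypes overlap for every gene but *Spaca7*, and *Crisp2* and *Atp8b3* stand highest.

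The 34 genes lie on 13 chromosomes, and 0 of them on the X or Y. *Spam1* (chr6:24791188-24801048) and *Hyal5* (chr6:24857997-24891958), both sperm hyaluronidases, are neighbours on the plus strand of chromosome 6 in GRCm38, 56948 bases apart. Promoter sequences from RefSeq (GRCm38.p6) were at hand for 27 of the 34 genes, as 37 start sites. They are not shown as evidence of a change, but because spermatid genes are known for the cAMP response element read by CREM and for the X-box read by RFX factors. In the 250 bases before the start, the full element TGACGTCA stood on either strand in 0 of 37 start sites, beside 1.55% of 32851 start sites of all genes. Its shorter core TGACG, which the full element contains, stood in 9 of 37 (24.3%, 7 genes), beside 17.8% of all. The X-box core GTTGCC stood in 5 of 37 (13.5%, 3 genes), beside 10.4% of all. These shares are descriptions, start sites of a gene can overlap, and a match in such a short word is no binding site. The windows shown are those outside annotated exons, for 4 genes whose values are given with their groups, and of the overlapping windows of *Pick1* only 1 is printed. Each is written 5′ to 3′ on the strand of the gene, with the core in capitals on whichever strand it lies; in *Pick1* the capitals mark a copy on each strand, 2 bases apart.
Zpbp2, chr11:98550924-98550980, plus strand: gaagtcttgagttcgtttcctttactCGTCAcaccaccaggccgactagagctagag
Gopc, chr10:52382255-52382311, minus strand: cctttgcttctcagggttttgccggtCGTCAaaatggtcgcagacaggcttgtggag
Calr3, chr8:72435174-72435231, minus strand: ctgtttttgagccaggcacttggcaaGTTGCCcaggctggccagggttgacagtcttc
Pick1, chr15:79229067-79229124, plus strand: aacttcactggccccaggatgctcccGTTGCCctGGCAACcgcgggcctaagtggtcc

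Of 7 genes grouped here under acrosomal content, which include the hyaluronidases *Spam1* and *Hyal5*, 0 passed the test. The grouping is not a statement of where each protein lies. Of the 7, 3 were above 0 and 4 below, with a median log2 fold change of -0.01. Bounds of all intervals lay between -0.57 and 0.38. *Acr*, the protease acrosin, measured 63.4, 88.4 and 108 CPM in fl/Y replicates 1 to 3 and 92.7, 59.4, 105 and 110 CPM in cKO/Y Sox2-Cre replicates 1 to 4. The lowest values were 1 library of each genotype, both of batch 2, and the groups overlapped (log2 fold change -0.01, SE 0.17). *Acrbp*, the protein that binds the acrosin precursor, measured 102, 138 and 194 CPM and then 135, 108, 197 and 204 CPM, again lowest in the same 2 libraries (0.03, SE 0.15). *Acrbp* shares 29.8% of its 35-base words (the read length) with Gm44597, which overlaps it on the same strand and stood at a mean of 3.68 CPM in fl/Y and 3.72 CPM in cKO/Y Sox2-Cre. *Spink2* ranged from 196 to 312 CPM in fl/Y and from 219 to 265 CPM in cKO/Y Sox2-Cre, and *Acrv1*, the matrix protein SP-10, from 135 to 146 CPM and from 122 to 164 CPM.

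*Spaca7*, whose product is released during the acrosome reaction, was the 1 gene of 34 whose groups did not overlap, beside 2.92% of all genes tested. It measured 72.5, 71.1 and 78.8 CPM in fl/Y and 60.2, 68.8, 59.5 and 68.8 CPM in cKO/Y Sox2-Cre. The gap between the groups was narrow, and the difference did not pass the test (log2 fold change -0.21, SE 0.14, 95% interval -0.52 to 0.09, unadjusted p = 0.157, limma). Within the batches it was -0.16 in batch 2 and -0.30 in batch 1. *Spaca7* shares 9.72% of its 35-base words with D630011A20Rik, which lies on the opposite strand and was not analysed here.

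The hyaluronidases *Spam1* and *Hyal5*, which loosen the cumulus matrix around the egg, did not pass the test. *Spam1* measured 85.0, 102 and 74.3 CPM in fl/Y and 81.9, 124, 53.9 and 67.8 CPM in cKO/Y Sox2-Cre (log2 fold change -0.05, SE 0.18). *Hyal5* measured 137, 110 and 93.9 CPM and then 82.2, 146, 74.9 and 90.6 CPM (-0.18, SE 0.19). Both had their highest value in cKO/Y Sox2-Cre replicate 2 and their lowest in cKO/Y Sox2-Cre replicate 3, so the spread within this genotype exceeded the difference between the genotypes.

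Genes of the acrosomal membrane and of the sperm head gave 4 values above and 3 below 0 among 7, with a median log2 fold change of 0.0012. *Zpbp*, a zona pellucida binding protein, varied most of the 34 genes (coefficient of variation 36.9% over the 7 libraries). It measured 212, 167 and 141 CPM in fl/Y and 127, 301, 114 and 157 CPM in cKO/Y Sox2-Cre, and the highest and the lowest value were both of the latter genotype (0.00, 95% interval -0.49 to 0.50). Its paralogue *Zpbp2* spread less, from 144 to 160 CPM in fl/Y and from 128 to 194 CPM in cKO/Y Sox2-Cre (0.00, 95% interval -0.35 to 0.35). *Dpy19l2*, which anchors the acrosome at the nuclear envelope and whose loss gives round-headed sperm, measured 253, 212 and 217 CPM and then 183, 334, 174 and 210 CPM (-0.02, SE 0.19). These 3 genes shared their maximum, in cKO/Y Sox2-Cre replicate 2.

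*Spaca1*, an inner acrosomal membrane protein, measured 79.9, 93.3 and 123 CPM in fl/Y and 85.3, 114, 126 and 120 CPM in cKO/Y Sox2-Cre (log2 fold change 0.12, SE 0.15). *Atp8b3* measured 1248, 1367 and 1823 CPM and then 1561, 1162, 2055 and 1957 CPM (0.08, SE 0.16). In both genes the libraries of batch 1 lay above those of batch 2, whatever the genotype. *Eqtn*, equatorin, a membrane protein of the equatorial segment, measured 123, 131 and 107 CPM and then 103, 151, 69.6 and 92.2 CPM (-0.18, SE 0.17), with a difference of -0.41 in batch 1 alone and -0.03 in batch 2 alone. *Spata46*, a subacrosomal protein, lay between 83.1 and 109 CPM in all 7 libraries.

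The 4 lysozyme-like genes, whose products sit in the acrosome or on the sperm surface and of which *Spaca3* is the best known, gave 3 values above and 1 below 0. *Spaca3* ranged from 46.9 to 50.9 CPM in fl/Y and from 38.8 to 59.5 CPM in cKO/Y Sox2-Cre, with 0.34 in batch 1 alone and -0.13 in batch 2 alone. *Lyzl1* ranged from 31.4 to 38.2 CPM and from 31.0 to 53.2 CPM, with the highest upper bound of the set (log2 fold change 0.15, 95% interval -0.27 to 0.56). *Lyzl4* was the steadiest of the 34 genes, with a coefficient of variation of 6.96% and values between 32.3 and 39.0 CPM. *Lyzl6* measured 46.5, 58.0 and 76.9 CPM and then 48.1, 53.6, 69.0 and 77.8 CPM, so that the batches separated and the genotypes did not (-0.05, SE 0.15).

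The 8 genes grouped under Golgi and vesicle traffic, some of which sort and fuse the proacrosomal vesicles, split into 4 above and 4 below 0. Their median log2 fold change was 0.01. *Gopc*, a Golgi PDZ protein, measured 28.3, 19.4 and 29.2 CPM in fl/Y and 26.7, 29.9, 22.0 and 24.5 CPM in cKO/Y Sox2-Cre (0.03, SE 0.19). *Pick1*, its binding partner, measured 29.4, 48.7 and 48.3 CPM and then 47.1, 36.1, 46.3 and 47.0 CPM (0.05, SE 0.19), with 5 libraries close together and 1 of each genotype below them. *Pick1* shares 19.0% of its 35-base words with Gm49486, which was not analysed here. *Smap2*, an Arf GTPase activating protein, was low in the same 2 libraries (18.8 CPM in fl/Y replicate 1 and 16.9 CPM in cKO/Y Sox2-Cre replicate 2) and between 28.3 and 36.6 CPM in the other 5.

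*Vps54*, a subunit of the tethering complex for vesicles that return to the Golgi and the gene altered in the wobbler mouse, measured 46.5, 37.0 and 31.3 CPM in fl/Y and 36.9, 49.0, 23.3 and 24.2 CPM in cKO/Y Sox2-Cre (log2 fold change -0.13, SE 0.18). *Agfg1*, needed for the fusion of proacrosomal vesicles, ranged from 190 to 219 CPM and from 170 to 272 CPM (0.08, SE 0.15). *Csnk2a2*, a catalytic subunit of casein kinase 2, ranged from 65.0 to 79.6 CPM and from 56.4 to 78.2 CPM (-0.11, SE 0.16). All of these groups overlapped. *Stx2*, a syntaxin, ranged from 30.9 to 43.2 CPM and from 32.7 to 46.6 CPM, and *Spata16* from 288 to 333 CPM and from 267 to 351 CPM.

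Among the 5 sperm surface genes, *Ly6k* came nearest to a difference. *Ly6k*, a GPI-anchored partner of *Tex101*, measured 51.7, 56.3 and 39.8 CPM in fl/Y and 42.2, 40.3, 30.2 and 39.1 CPM in cKO/Y Sox2-Cre. The groups overlapped through fl/Y replicate 3, which stood at the level of 3 of the cKO/Y Sox2-Cre libraries. The log2 fold change was -0.31 (SE 0.16, 95% interval -0.65 to 0.02, unadjusted p = 0.0643, limma), with -0.38 in batch 2 and -0.21 in batch 1. *Ly6k* (chr15:74796874-74799986, minus strand) overlaps Gm17189 on the opposite strand over 47.6% of its exons and shares 37.7% of its 35-base words with it. Whether strand was used in counting is not given in the sources used here, so reads of these genes cannot be told apart in the overlap.

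*Tex101* itself, a GPI-anchored protein that is needed for the maturation of the sperm protein ADAM3, measured 88.9, 114 and 93.6 CPM in fl/Y and 136, 103, 86.9 and 83.4 CPM in cKO/Y Sox2-Cre (log2 fold change 0.09, SE 0.16), and its groups overlapped. *Ace*, angiotensin-converting enzyme, which has a testis form, ranged from 325 to 429 CPM and from 313 to 489 CPM (0.01, SE 0.14). The gene total does not separate the testis form from the somatic form. *Pcsk4*, a proprotein convertase of the sperm surface, ranged from 39.8 to 67.9 CPM and from 53.0 to 81.2 CPM (0.13, SE 0.17). *Crisp2* measured 2849, 2138 and 1797 CPM and then 1605, 3217, 1739 and 1719 CPM (-0.09, SE 0.22), with the highest library of each genotype in batch 2.

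Of the endoplasmic reticulum and lipid genes, *Clgn*, the chaperone calmegin, measured 586, 484 and 456 CPM in fl/Y and 684, 586, 321 and 355 CPM in cKO/Y Sox2-Cre. Its genotype difference went in opposite directions in the batches, 0.25 in batch 2 and -0.43 in batch 1, and was -0.02 (SE 0.17) over both. *Calr3*, the testis calreticulin, ranged from 68.7 to 88.1 CPM and from 67.3 to 82.7 CPM (-0.05, SE 0.15). *Gba2*, the non-lysosomal glucosylceramidase whose loss gives round-headed sperm in mice, had the highest estimate of the set (0.17, SE 0.19, 95% interval -0.23 to 0.56), with 30.3 to 45.0 CPM in fl/Y and 33.2 to 52.1 CPM in cKO/Y Sox2-Cre.

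With a variance trend and genotype in the model, 4 of 34 genes (11.8%) differed between the batches at an adjusted p under 0.05 (limma), beside 7.06% of all genes tested. *Acrbp* was lower in batch 2 (log2 difference -0.72, SE 0.15, adjusted p = 0.014), as was *Lyzl6* (-0.54, SE 0.15, adjusted p = 0.0429), beside 3.6% of all genes lower in batch 2. *Vps54* was higher in batch 2 (0.66, SE 0.18, adjusted p = 0.0379), as was *Clgn* (0.63, SE 0.17, adjusted p = 0.0364), beside 3.46% of all genes higher in batch 2. The libraries of the batches did not overlap for 13 of 34 genes, beside 23.6% of all genes. These comparisons with all genes are not matched for level either, so a larger share is not read as particular to the set. The genotype difference had the same sign in each batch alone for 14 of 34 genes. The share over all genes was not computed, so this count is not read as particular to the set. The number of genes with a batch difference depended on the variance model and the scaling, with 0 in limma without a trend and 9 with library totals in place of the scaling of the table. It also rested on single libraries: it fell to 0 when fl/Y replicate 3, cKO/Y Sox2-Cre replicate 3 or cKO/Y Sox2-Cre replicate 4 was left out, to 1 when fl/Y replicate 1 was, and to 2 when cKO/Y Sox2-Cre replicate 2 was, and it came to 12 when cKO/Y Sox2-Cre replicate 1 was left out.

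**Figure D3:**
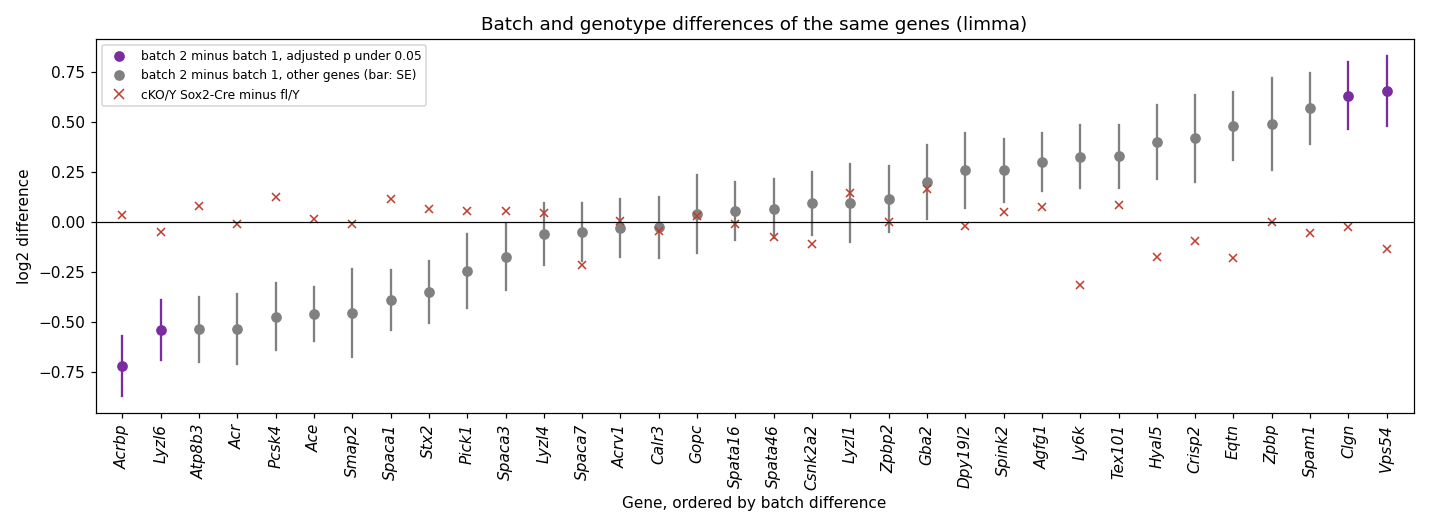
Log2 difference between batch 2 and batch 1 (circles; bars, SE) and between cKO/Y Sox2-Cre and fl/Y (crosses) for the 34 genes, ordered by the batch difference (limma with both terms, 7 libraries; purple, batch difference at an adjusted p under 0.05). The batch differences run from -0.72 for *Acrbp* to 0.66 for *Vps54*, and the crosses stay between -0.31 and 0.17.

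Markers of 3 of the 4 germ cell stages separated the batches as well. The 19 markers of elongating spermatids summed to between 13564 and 15202 CPM in batch 2 and between 17061 and 18639 CPM in batch 1, and the 19 measured markers of round spermatids to between 2522 and 2709 CPM and between 3051 and 3251 CPM. The 19 markers of spermatocytes went the other way, with 2546 to 3409 CPM in batch 2 and 1646 to 2128 CPM in batch 1. Spermatogonium markers overlapped, with sums of 119 to 161 CPM in batch 2 and 138 to 142 CPM in batch 1. At an adjusted p under 0.05 for batch, 5 of 19 elongating spermatid and 2 of 19 round spermatid markers were called. So were 6 of 19 spermatocyte and 0 of 13 spermatogonium markers, beside 7.06% of all genes tested, a share not matched for level. Of these germ cell markers, 0 was at 0 in any library. Among the other cell types, 2 of 8 peritubular myoid, 1 of 10 Leydig cell and 1 of 8 endothelial markers were called. For Sertoli cells, macrophages and red blood cells the count was 0. The part of these shifts in the batch differences of the acrosome genes was not tested. By genotype the same sums overlapped: elongating spermatid markers measured 14362 to 17061 CPM in fl/Y and 13564 to 18639 CPM in cKO/Y Sox2-Cre, round spermatid markers 2683 to 3160 CPM and 2522 to 3251 CPM, and spermatocyte markers 2128 to 3104 CPM and 1646 to 3409 CPM.

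The libraries of a genotype differed among themselves within a batch. In batch 2, fl/Y replicate 1 and cKO/Y Sox2-Cre replicate 2 were low in *Acr*, *Acrbp*, *Pick1* and *Smap2* and high in *Zpbp*, *Dpy19l2*, *Vps54* and *Crisp2*, while fl/Y replicate 2 and cKO/Y Sox2-Cre replicate 1 were nearer to the mean or on the other side. cKO/Y Sox2-Cre replicate 2 held the highest of the 7 values for 13 of the 34 genes and the lowest for 4. cKO/Y Sox2-Cre replicate 3 held the lowest for 11 and the highest for 7. The median deviation of the 34 genes from their own means on the log2 scale was 0.118 in cKO/Y Sox2-Cre replicate 2 and -0.105 in cKO/Y Sox2-Cre replicate 1, the extremes of the series, and the summed level was 8773 and 6931 CPM in these libraries. In the same libraries the median deviation of 18 Sertoli cell markers was -0.37 and 0.36, and that of spermatogonium markers -0.47 and 0.19. The part of these shifts in the levels of the acrosome genes was not tested.

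**Figure D4:**
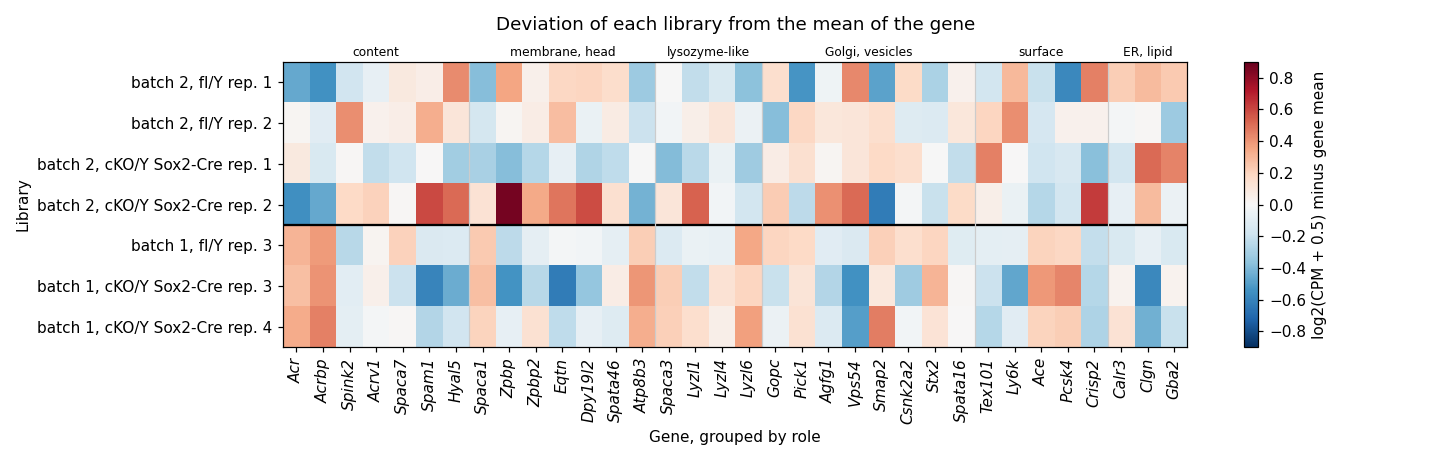
Deviation of each library from the mean of the gene on the log2(CPM + 0.5) scale (colour; red higher, blue lower), with the 7 libraries as rows (batch 2 above the line, batch 1 below) and the 34 genes as columns grouped by role. *Zpbp*, *Dpy19l2* and *Crisp2* are among the darkest red in cKO/Y Sox2-Cre replicate 2, and *Acrbp* is blue in batch 2 and red in batch 1.

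**Figure D5:**
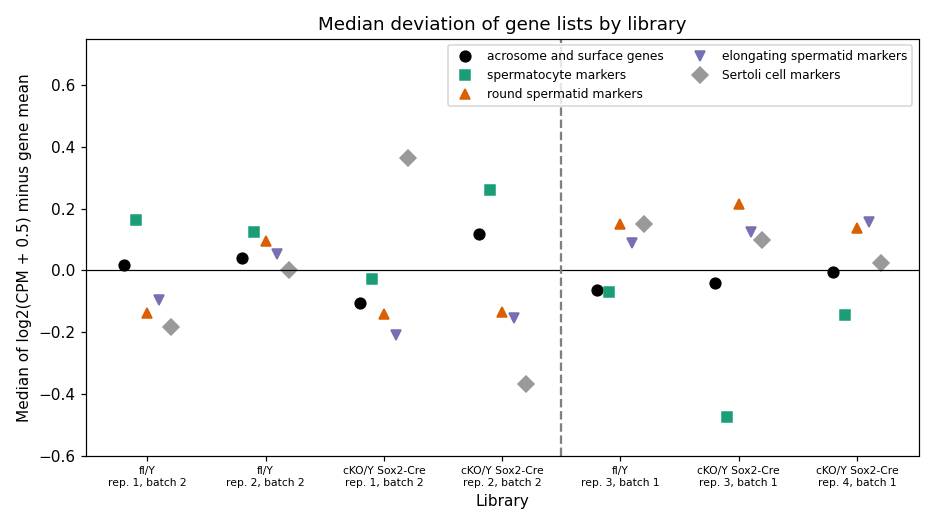
Median deviation from the gene means on the log2(CPM + 0.5) scale for the 34 acrosome and sperm surface genes and 4 marker lists in each library (batch 2 left of the dashed line, batch 1 right). The acrosome genes stay between -0.105 and 0.118, and Sertoli cell markers range from -0.37 to 0.36. Round and elongating spermatid markers are above 0 in the 3 libraries of batch 1 and in fl/Y replicate 2 of batch 2.

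Over the 7 libraries, the coefficient of variation had a median of 19.1% among the 34 genes. It was 26.3% over all genes tested, and 16.8% over the 5855 genes whose mean was at or above that of the lowest member.

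Other genes of the acrosome and of sperm surface maturation did not pass the test in either direction. Of 38 further acrosome genes tested, 0 passed an adjusted or an unadjusted p under 0.05 (limma), with 11 above and 27 below 0 and a median log2 fold change of -0.05. Of 13 genes that act in the maturation of ADAM3, the step in which *Tex101*, *Clgn* and *Calr3* take part, 0 passed either threshold, with a median of -0.01. Among the cell type markers 0 passed the adjusted threshold. The markers at an unadjusted p under 0.05 were *Stra8* of 13 spermatogonium markers (log2 fold change -0.55), *Rhox5* of 18 Sertoli cell markers (-0.55), *Hsd3b6* (-1.27) and *Star* (-0.33) of 10 Leydig cell markers, and *Pecam1* of 8 endothelial markers (0.72). Beside the 2.58% of all genes at this threshold, these were 1 of 13, 1 of 18, 2 of 10 and 1 of 8. Over the whole lists, of the Leydig cell markers 7 were above and 3 below 0 (median 0.05), of the Sertoli cell markers 10 and 8 (median 0.05), of the spermatogonium markers 6 and 7 (median -0.03) and of the endothelial markers 4 and 4 (median -0.01). At this threshold 0 were called among 19 spermatocyte, 19 round spermatid, 19 elongating spermatid, 8 peritubular myoid, 10 macrophage and 3 red blood cell markers. More of the later germ cell markers lay below 0 than above. Elongating spermatid markers had 4 above and 15 below (median -0.07), round spermatid markers 5 and 14 (-0.05) and spermatocyte markers 5 and 14 (-0.06). Peritubular myoid markers had 2 and 6 (-0.04), macrophage markers 6 and 4 (0.02) and red blood cell markers 1 and 2 (-0.08). These tallies were not tested.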

How the data were processed

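Reads were paired and 35 bases long. Per the labels, HISAT2 2.1.0 aligned them to GRCm38 and featureCounts and edgeR made the deposited table, although the published methods name another aligner and counter. The authors deposited CPM (a signal per gene), and their values equalled CPM with TMM-scaled library sizes computed here. Values were whole multiples of 1 read in 100% of cases to within 0.001 of a read, so counts were recovered, and edgeR's quasi-likelihood test on them called 1 gene. A test for CPM was used in the main comparison: limma 3.58.1 (R 4.3.3) with a variance trend on log2(CPM + 0.5), batch as a covariate, two-sided, adjusted by Benjamini-Hochberg over the 19400 genes that exceeded 1 CPM in 3 or more of the 7 libraries. edgeR 4.0.16, DESeq2 1.42.0 and the other alternatives are given at the end of the document, and the method was tested on simulated data. Exon lengths, overlaps and shared 35-base words came from GENCODE M21, whose coordinates equalled those of the table for 32 of 34 genes (not *Crisp2* and *Pick1*). All members were named, with *Rlim* and list genes at an unadjusted p under 0.05 (at most 4 per list). Members and lists were chosen with earlier results of these data known. Lists were described by counts and not tested. Protein sequences were not used here.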

Additional observations from a re-analysis of the deposited data

Results flagged for a closer look

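In 36 groups of 4 libraries (the cKO/Y Sox2-Cre values of each gene, of *Rlim* and of the summed set), 2 held a library far from the others by Dixon's criterion (the gap to the nearest library over the range of the group, at its 95% critical value), a criterion that chance meets in about 1 of 20 groups. Both were cKO/Y Sox2-Cre replicate 2. *Crisp2* stood at 3217 CPM there and at 1605 to 1739 CPM in the other 3 libraries of the genotype (gap over range 0.917), while fl/Y replicate 1, of the same batch, measured 2849 CPM. *Pick1* stood at 36.1 CPM there and at 46.3 to 47.1 CPM in the others (0.923), while fl/Y replicate 1 measured 29.4 CPM.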

How the results depend on the processing

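Under 21 alternatives, the number of the 34 genes at an adjusted p under 0.05 between genotypes stayed at 0, and their median log2 fold change lay between -0.058 and 0.033. The lowest adjusted p of any of them was 0.785, the lowest unadjusted p 0.0289 and the largest size of a log2 fold change 0.43, while 100 of 714 gene values took the opposite sign. Genes lower at an unadjusted p under 0.05 numbered 2 in batch 1 alone (*Eqtn* and *Clgn*) and 0 to 2 with 1 library left out, namely 2 without cKO/Y Sox2-Cre replicate 2 (*Eqtn* and *Hyal5*) and 1 without cKO/Y Sox2-Cre replicate 4 (*Ly6k*). The number with a batch difference at an adjusted p under 0.05, 4 in the report, was 0 in limma without a trend, 9 with library totals in place of TMM, and 0 to 12 with 1 library left out. *Rlim* stayed lower throughout, with an adjusted p between 5.42e-10 and 0.921 that was under 0.05 in 15 of 21. Its log2 fold change lost the threshold at -1.38 without a trend (adjusted p = 0.815), at -1.47 without the batch term (0.921) and at -1.29 in batch 2 alone (0.872), and it ranged from -1.52 to -1.28 with 1 library left out, losing the threshold without fl/Y replicate 1 (0.154) and without fl/Y replicate 3 (0.634). As fl/Y replicate 3 was the only fl/Y library of batch 1, the estimates without it were those of batch 2 alone. These 2 alternatives are therefore not independent of each other. The cause of the other losses was not tested. Whether replicate numbers pair the libraries was not settled. Same-numbered libraries correlated at 0.101, 0.066 and 0.392, and at -0.295, -0.264 and -0.556 after batch and genotype were fitted. The first values include the batch that same-numbered libraries shared. In the fit the residuals of each batch sum to 0, which pushes correlations between its libraries below 0. Neither set of values can therefore decide on pairing. Differently numbered libraries were not compared. With a replicate block in the fit, to which cKO/Y Sox2-Cre replicate 4 adds nothing because its number has no fl/Y partner, *Rlim* stood at -1.35 (adjusted p = 0.307), the count of the 34 genes stayed at 0 and their median was -0.012. The fewest reads behind a value of the 34 genes, 70 for *Gopc*, carry a counting error of 12.0%.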
